A study of Rattus norvegicus with 9 samples.

Results

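Skeletal muscle makes its own versions of many enzymes of energy metabolism, and the RNA of 10 of them was followed here in rat tibia: Ckm, Ckmt2, Pygm, Pfkm, Pgam2, Eno3, Mb, Cox6a2, Cox8b and Ldhb. They are 10 of the 23768 genes in the deposited count table, found by gene symbol. The genes were chosen from earlier results of these same libraries, in which muscle genes differed between the groups, together with general knowledge of muscle isoforms. Their levels and fold changes are therefore given as a description, with no p-value. All 10 passed the filter on low counts and are among the 16816 genes tested.

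The tissue was tibia of male Sprague Dawley rats, sequenced as total RNA, and the title of the study names bone healing in diabetes and a peptide that imitates the collagen cross-linking enzyme lysyl oxidase. Libraries fall into 3 groups of 3: PMLGH (replicates 2, 3 and 4), GelMA (replicates 2, 3 and 4) and Model (replicates 1, 2 and 5). The name GelMA commonly stands for gelatin methacryloyl, a modified gelatin cured to a hydrogel. The labels call the PMLGH and GelMA rats treated. They do not spell out PMLGH, say what the Model animals went through, or give an age, a dose or a time of sampling. Nor do they tie each library to its own animal, so p-values may in part measure technical spread. No batch is labelled, and one that ran along with the groups could not be separated from the treatments.

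Muscle fibres meet sudden demand for ATP from phosphocreatine, through cytosolic creatine kinase (Ckm), which mitochondrial creatine kinase (Ckmt2) refills. Sustained work draws on glycogen, opened by muscle phosphorylase (Pygm) and burned through muscle forms of phosphofructokinase (Pfkm), phosphoglycerate mutase (Pgam2) and enolase (Eno3). Oxygen is stored by myoglobin (Mb) and consumed by cytochrome c oxidase, whose subunits Cox6a2 and Cox8b replace the common forms in striated muscle. Ldhb encodes the heart-type subunit of lactate dehydrogenase, which is common in oxidative fibres and is also made in many other tissues.

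The promoters of these genes were searched for sequence features that the choice of genes did not use. RefSeq promoter windows of the GRCr8 assembly, from 250 bases before the annotated start to 50 bases from it, were found for all 10 genes. The motif CAGCTG, a form of the E-box bound by myogenic factors that reads the same on both strands, stood in 7 of the 10 windows. It was in 1 of 12 windows of the partner isoforms set beside the members (Pygl), and in 15.1% of 33469 rat windows. Pfkm, Mb and Ldhb had none. Shown first, with CAGCTG in capitals, are Ckm for the phosphagen system, Pgam2 for glycolysis and Cox6a2 for respiration. They lie at chr1:88189211-88189510 on the + strand, chr14:84897825-84898124 on the - strand and chr1:192219667-192219966 on the - strand. Ldhb (chr4:177177359-177177658, - strand) is the member least correlated with the others, and Pgam1 (chr1:250672902-250673201, + strand) is the common partner of Pgam2. These last windows have each CG pair in capitals. All are written 5′ to 3′ on the gene's strand.
Ckm: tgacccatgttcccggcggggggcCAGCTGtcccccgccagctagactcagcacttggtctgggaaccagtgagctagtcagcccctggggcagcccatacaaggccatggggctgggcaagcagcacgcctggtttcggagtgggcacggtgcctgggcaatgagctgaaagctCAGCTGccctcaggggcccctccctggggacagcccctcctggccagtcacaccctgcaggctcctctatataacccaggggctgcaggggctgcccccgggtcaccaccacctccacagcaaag
Pgam2: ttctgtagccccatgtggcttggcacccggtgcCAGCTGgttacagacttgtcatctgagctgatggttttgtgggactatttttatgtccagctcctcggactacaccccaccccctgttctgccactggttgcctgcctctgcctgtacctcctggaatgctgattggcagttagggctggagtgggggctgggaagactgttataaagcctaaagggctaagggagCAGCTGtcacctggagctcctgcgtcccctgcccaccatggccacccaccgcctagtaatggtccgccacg
Cox6a2: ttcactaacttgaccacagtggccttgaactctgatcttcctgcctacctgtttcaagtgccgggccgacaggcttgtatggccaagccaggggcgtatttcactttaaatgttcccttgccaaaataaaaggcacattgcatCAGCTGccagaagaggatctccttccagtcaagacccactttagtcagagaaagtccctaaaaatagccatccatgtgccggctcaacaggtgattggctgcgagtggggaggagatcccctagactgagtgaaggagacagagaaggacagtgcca
Ldhb: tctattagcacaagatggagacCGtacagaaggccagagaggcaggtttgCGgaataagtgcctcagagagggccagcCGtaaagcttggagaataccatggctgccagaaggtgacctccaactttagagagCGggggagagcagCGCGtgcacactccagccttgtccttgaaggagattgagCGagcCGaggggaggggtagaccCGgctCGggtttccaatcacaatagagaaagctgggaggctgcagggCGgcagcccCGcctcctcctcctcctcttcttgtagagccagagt
Pgam1: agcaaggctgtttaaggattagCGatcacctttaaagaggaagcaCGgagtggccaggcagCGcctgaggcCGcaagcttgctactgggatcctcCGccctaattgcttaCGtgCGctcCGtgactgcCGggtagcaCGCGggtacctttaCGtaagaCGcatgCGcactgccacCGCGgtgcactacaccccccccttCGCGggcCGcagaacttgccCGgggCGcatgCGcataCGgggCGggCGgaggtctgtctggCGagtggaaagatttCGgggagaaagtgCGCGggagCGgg

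Positions are counted from +1 at the annotated start and name the first base of the motif. CAGCTG began at -226 and -75 in Ckm, at -217 and -21 in Pgam2 and at -107 in Cox6a2. Outside the windows shown, it began at -113 in Ckmt2, at -181 and -32 in Pygm, at +1 in Eno3, and at -100 and -62 in Cox8b. The looser E-box CANNTG, which includes every CAGCTG, was in 8 of 10 member windows, 7 of 12 windows of the other isoforms and 72.1% of all windows. TATAAA was in 3 member windows, at -46 in Pgam2, -60 in Mb and -39 in Cox8b, and in 14.2% of all windows. The MEF2 consensus was in 1, Cox6a2, beginning at -50, and in 3.3% of all windows. The CArG consensus and the ERR motif TNAAGGTCA were in 0 of 10 member windows, against 1.6% and 1.2% of all windows. All motifs were searched on both strands, and a match is only a match of letters.

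Ldhb, with 12 CG pairs, was the richest in CG of the members, against 30 in Pgam1. The 10 member windows held 1 to 12 CG pairs, with a median of 6. The 12 windows of the other isoforms, from 11 genes, held 13 to 31, with a median of 26, so the ranges did not overlap. The median over all rat windows was 7. Observed over expected CG ran from 0.04 (Mb) to 0.483 (Ldhb) in the members and from 0.444 to 1.006 in the other isoforms. The GC box GGGCGG was in 3 of 10 member windows, 8 of 12 windows of the other isoforms and 33.1% of all windows.

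Total counts per library ran from 34571478 to 37166383, and 970 genes had no count in any library. Levels are given in CPM (count shares of the TMM-scaled library), as are sums over genes and values divided by such sums. FPKM, which the authors scaled to gene length, is used for the order of the genes and for isoform shares. Model 2 stood apart within its group: its mean chi-square per gene was 33.5 against Model 1 and 28.1 against Model 5, which had 15.9 between them. All other pairs of a group had 7.57 to 17.1. The rule by which the authors counted reads with several matches is not stated, so genes with near-identical copies or pseudogenes are uncertain. They include Pgam1, Eno1, Ldha, Cox6a1 and the myosin heavy chains Myh1, Myh2, Myh4, Myh6 and Myh7.

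All 10 genes were highest in GelMA. Against Model, their log2 fold changes in GelMA ran from 0.49 (Ldhb) to 2.63 (Ckmt2), with a median of 2.03, where the median of all tested genes was 0.0276. All 10 passed edgeR's adjusted threshold of 0.05 upward, where 12.7% of all genes passed upward and 9.88% downward. In all 10 every GelMA library was above every Model library, as in 19.8% of all genes. The choice of the genes drew on these same contrasts, so the counts only describe them.

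In PMLGH, 8 of the 10 means lay between GelMA and Model, and those of Pfkm and Ldhb were below both. Against GelMA, log2 fold changes in PMLGH ran from -2.02 (Ckmt2) to -0.88 (Pfkm), with a median of -1.43 against 0.00285 over all genes. All 10 passed the threshold downward, where 1.64% of all genes passed downward and 1.8% upward. No PMLGH library reached a GelMA library for any of the 10, a pattern that 11.4% of all genes showed in that direction.

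Against Model, PMLGH differed less, with a median log2 fold change of 0.58 over the 10 genes and 0.0167 over all genes. Of the 10 genes, 6 passed upward, where 15.7% of all genes did: Ckm, Ckmt2, Pygm, Eno3, Mb and Cox8b. Only Ldhb (1 of 10) passed downward, where 11.9% did. Pfkm, Pgam2 and Cox6a2 did not pass; with no filter on low counts Pgam2 and Cox6a2 did, which made 9 of 10. Libraries did not overlap upward for 4 genes (Ckm, Pygm, Mb and Cox8b), as in 21.1% of all genes, and downward for 0, against 18.4%. The 3 comparisons share libraries, since each group enters 2 of them. Without PMLGH 4, only 2 of the 10 passed against Model (Pygm and Mb). Without Model 5, 4 passed.

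**Figure D1:**
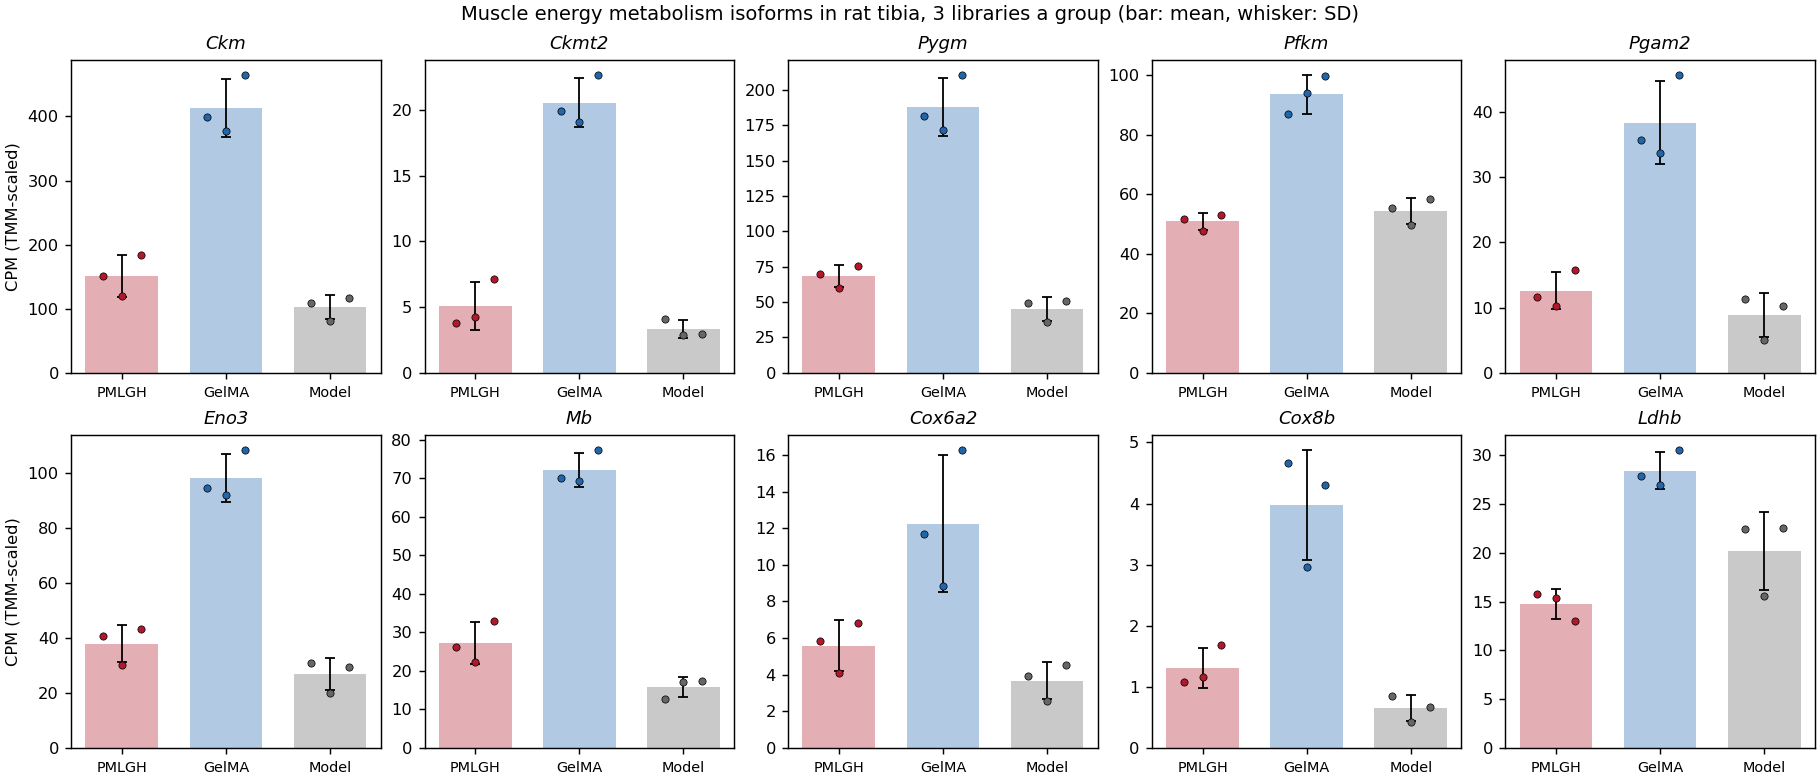
CPM of the 10 genes in each library (points), with the group mean (bar) and SD (whisker), n = 3 libraries a group; each panel has its own axis starting at 0. The GelMA bar is the tallest in every panel, and the PMLGH bar is below the Model bar for Pfkm and Ldhb.

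Ckm, the most abundant of the 10, showed the common pattern. It had 150, 119 and 183 CPM in PMLGH 2, 3 and 4, 398, 377 and 465 CPM in GelMA 2, 3 and 4, and 110, 80.9 and 117 CPM in Model 1, 2 and 5. Every GelMA library was far above the rest, and the lowest PMLGH library was just above the highest Model library. GelMA was 4.03-fold higher than Model (log2 2.01 ± 0.15, SE), and PMLGH was 1.47-fold higher than Model (0.56 ± 0.14). In PMLGH against GelMA the log2 fold change was -1.45 ± 0.14. The call of PMLGH against Model was lost without PMLGH 4.

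Ckmt2, the sarcomeric mitochondrial creatine kinase, had the widest span between GelMA and PMLGH. Its counts were 141, 158 and 262 in PMLGH, 721, 697 and 838 in GelMA, and 139, 103 and 101 in Model. The corresponding levels were 3.81, 4.26 and 7.14 CPM in PMLGH, 19.9, 19.1 and 22.6 CPM in GelMA, and 4.10, 2.90 and 2.96 CPM in Model. PMLGH 4 was well above the other PMLGH libraries, and PMLGH 2 lay below Model 1. GelMA was 6.19-fold higher than Model (2.63 ± 0.21), while PMLGH stood at 0.61 ± 0.21 against Model and -2.02 ± 0.20 against GelMA. Without PMLGH 4 the log2 fold change of PMLGH against Model was 0.28 and no longer passed; the call was also lost without Model 2, Model 5 or any of the GelMA libraries. RLE or upper-quartile scaling, the groups compared alone and limma on FPKM ended it too, so that it was lost in 11 of 16 alternatives.

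Pygm, muscle glycogen phosphorylase, had 70.1, 60.2 and 75.5 CPM in PMLGH, 181, 171 and 210 CPM in GelMA, and 49.4, 35.7 and 50.6 CPM in Model. The 3 groups did not overlap at all. GelMA was 4.15-fold higher than Model (2.05 ± 0.12), and PMLGH 1.52-fold higher than Model (0.60 ± 0.12). Its log2 fold change in PMLGH against GelMA, -1.45 ± 0.12, was the same as that of Ckm to the second decimal.

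Pfkm, whose product sets the pace of glycolysis in muscle, moved less. It had 51.8, 47.7 and 53.1 CPM in PMLGH, 86.8, 94.2 and 99.8 CPM in GelMA, and 55.3, 49.6 and 58.3 CPM in Model. PMLGH and Model libraries intermingled, and only GelMA stood clear. GelMA was 1.72-fold higher than Model (0.78 ± 0.07), and PMLGH was at -0.10 ± 0.07 against Model and -0.88 ± 0.07 against GelMA. Against Model, the PMLGH value was -0.19 without Model 2, when it passed the threshold, -0.06 without Model 5 and -0.05 without PMLGH 3.

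Pgam2, the muscle phosphoglycerate mutase, had 11.7, 10.3 and 15.8 CPM in PMLGH, 35.7, 33.7 and 45.7 CPM in GelMA, and 11.4, 5.04 and 10.3 CPM in Model. GelMA stood clear, Model 1 and 5 lay close to PMLGH 2 and 3, and Model 2 was lower than all of them. The log2 fold changes were 0.50 ± 0.23 for PMLGH against Model, 2.11 ± 0.23 for GelMA against Model and -1.61 ± 0.22 for PMLGH against GelMA. PMLGH against Model was 0.19 without Model 2 and 0.31 without PMLGH 4, and it passed without Model 1 or with no filter on low counts.

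Eno3, the muscle enolase next in the pathway, had 40.5, 30.3 and 43.1 CPM in PMLGH, 94.4, 91.8 and 108 CPM in GelMA, and 30.9, 20.1 and 29.4 CPM in Model. PMLGH 3 lay within the range of Model, and the other PMLGH libraries above it. The log2 fold changes were 0.50 ± 0.14 for PMLGH against Model, 1.87 ± 0.14 for GelMA against Model and -1.37 ± 0.14 for PMLGH against GelMA. Without Model 2, PMLGH against Model was 0.30, and the call was lost without PMLGH 2 or PMLGH 4 and by DESeq2.

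Mb, the oxygen store of red fibres, had 26.3, 22.4 and 33.0 CPM in PMLGH, 69.3 to 77.4 CPM in GelMA, and 12.8, 17.2 and 17.4 CPM in Model. Here the groups were apart again, and Model 1, not Model 2, was the lowest. GelMA was 4.57-fold higher than Model (2.19 ± 0.13), PMLGH 1.72-fold higher than Model (0.78 ± 0.13), and PMLGH against GelMA stood at -1.41 ± 0.13.

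Cox6a2, a muscle subunit of cytochrome c oxidase, had 5.86, 4.07 and 6.81 CPM in PMLGH, 11.7, 8.83 and 16.3 CPM in GelMA, and 3.92, 2.56 and 4.52 CPM in Model. GelMA was clear of the others, though GelMA 4 was well above GelMA 3. The log2 fold changes were 0.61 ± 0.25 for PMLGH against Model, 1.74 ± 0.25 for GelMA against Model and -1.13 ± 0.24 for PMLGH against GelMA. PMLGH against Model was 0.37 without Model 2, and it passed without PMLGH 3 or with no filter on low counts. The call of PMLGH against GelMA was lost without GelMA 4 or PMLGH 3 and by limma on FPKM.

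Cox8b, the other muscle subunit, was the lowest in counts, with 40, 43 and 62 in PMLGH, 169, 108 and 159 in GelMA, and 29, 15 and 23 in Model. In CPM these were 1.08, 1.16 and 1.69 in PMLGH, 4.67, 2.95 and 4.30 in GelMA, and 0.855, 0.422 and 0.675 in Model. The groups did not overlap, but few reads stand behind the Model values. GelMA was 6.09-fold higher than Model (2.61 ± 0.33), PMLGH 2.01-fold higher than Model (1.01 ± 0.34), and PMLGH against GelMA stood at -1.60 ± 0.30. Removal of Model 2, Model 5, GelMA 2, GelMA 4, PMLGH 3 or PMLGH 4 ended the call of PMLGH against Model, as did comparing the groups alone.

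Ldhb, like Pfkm, had its lowest mean in PMLGH. It had 15.8, 15.4 and 13.0 CPM in PMLGH, 27.9, 26.9 and 30.5 CPM in GelMA, and 22.5, 15.6 and 22.6 CPM in Model. PMLGH was below Model 1 and 5 and overlapped only Model 2, and GelMA was above all other libraries. The log2 fold changes were -0.46 ± 0.13 for PMLGH against Model, 0.49 ± 0.13 for GelMA against Model and -0.95 ± 0.13 for PMLGH against GelMA. Against Model, the GelMA value was 0.31 without Model 2, and its call was lost without GelMA 4. For PMLGH the call did not hold once Model 1, Model 5 or PMLGH 4 was removed, nor by limma on log2(FPKM + 1).

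**Figure D2:**
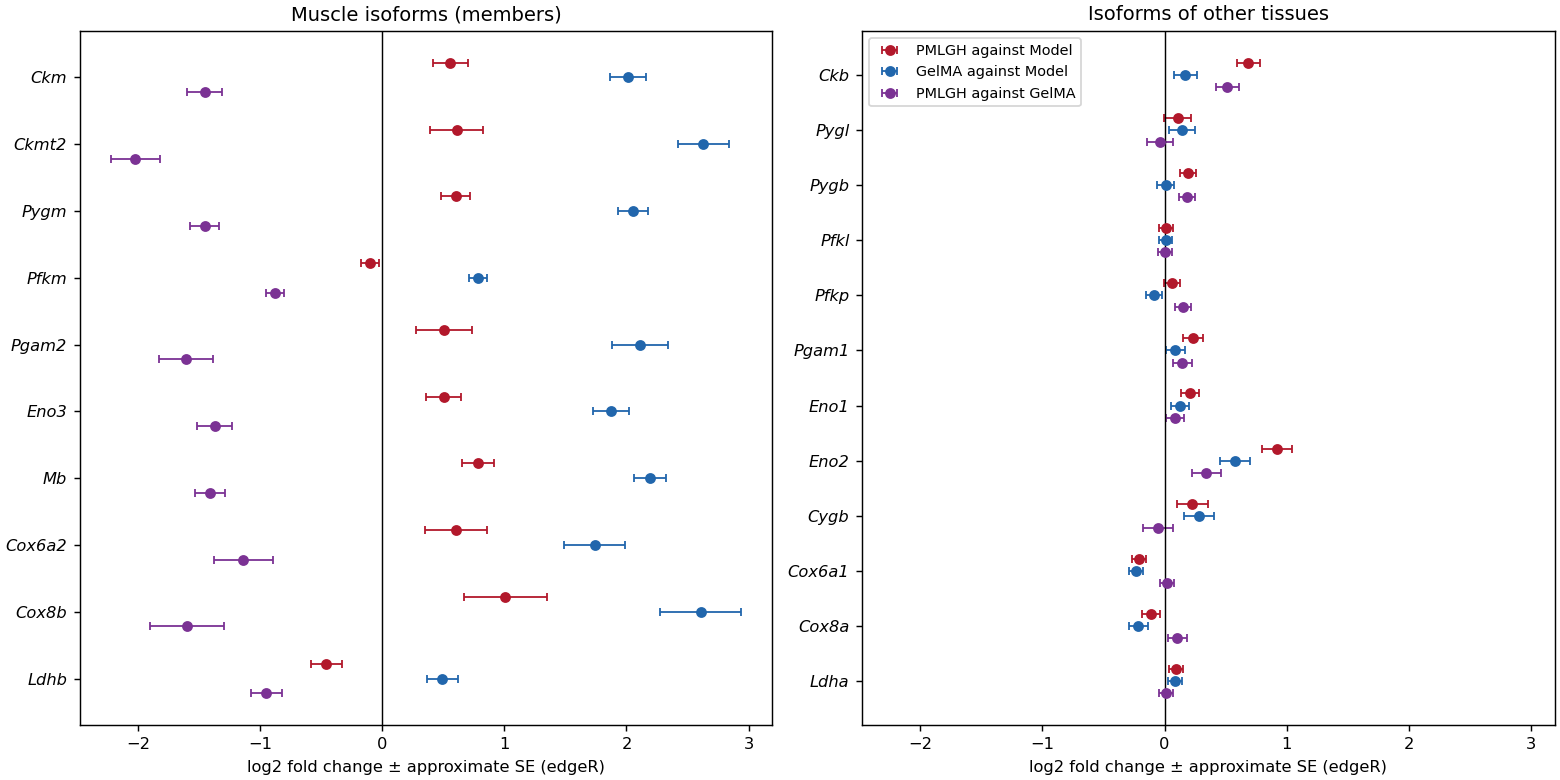
Log2 fold changes with approximate SE (whiskers) of the 10 members (left) and the 12 tested partners (right), by comparison, on the same axis. The partners include Ldha, the muscle-type subunit set beside Ldhb. GelMA against Model runs from 0.49 to 2.63 on the left, while most values on the right lie near 0.

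Per length of gene, the order of levels was much the same in PMLGH and GelMA and differed in Model. Pfkm and Ldhb were above Pgam2 in Model and below it in GelMA. In PMLGH the mean FPKM were 99.6 for Ckm, 28.6 for Mb, 25.1 for Eno3, 22.5 for Pygm, 15.9 for Pgam2, 15.8 for Pfkm, 10.6 for Cox6a2, 10.4 for Ldhb, 4.09 for Cox8b and 3.21 for Ckmt2. In GelMA they were 278 for Ckm, 77.4 for Mb, 66.2 for Eno3, 62.7 for Pygm, 49.4 for Pgam2, 29.6 for Pfkm, 23.7 for Cox6a2, 20.3 for Ldhb, 13.3 for Ckmt2 and 12.6 for Cox8b. In Model they were 67.0 for Ckm, 17.6 for Eno3, 16.7 for Pfkm, 16.5 for Mb, 14.7 for Pygm, 14.1 for Ldhb, 11.1 for Pgam2, 6.91 for Cox6a2, 2.09 for Ckmt2 and 2.01 for Cox8b. Ckm led everywhere, and Ckmt2 and Cox8b were last everywhere, with the difference between that pair inside the SD of Cox8b in each group. Neighbours were also closer than the SD of the higher gene between Mb, Eno3 and Pygm and between Pgam2 and Pfkm in PMLGH, between Eno3 and Pygm in GelMA, and between Eno3, Pfkm, Mb, Pygm and Ldhb in Model. The same held for Cox6a2 and Ldhb in PMLGH and GelMA.

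The 10 genes varied together among libraries of the same group. Within PMLGH, replicate 4 was the highest for 9 genes and the lowest for Ldhb, and replicate 3 was the lowest for 7. Within GelMA, replicate 4 was the highest for 9 and replicate 3 the lowest for 9. Within Model, replicate 2 was the lowest for 9, all but Mb. The summed level of the 10 genes ran from 315 to 433 CPM in PMLGH, 896 to 1080 CPM in GelMA and 230 to 314 CPM in Model.

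Over the 9 libraries, Pearson r between a member and the mean of the other 9 was 0.938 to 0.994 for all but Ldhb, at 0.705. These values describe libraries that share a tissue, a depth and a clear gap between GelMA and the rest, and carry no p. Of 14205 other genes averaging 1 CPM or more, those whose pattern was most like the mean of the 10 were Acta1 (r = 0.995), Atp2a1 (0.995), Tnnt3 (0.993), Ldb3 (0.992), Myl1 (0.991), Tnnc2 (0.990), Tcap (0.990), Mybpc2 (0.990), Ttn (0.989) and Tnni2 (0.989). All 10 encode proteins of the sarcomere, its Z-disc or, for Atp2a1, the calcium pump of fast fibres. Pfkm and Ldhb had other neighbours: Prkaa2, H1f10 and Hspb6 for Pfkm, and RGD1359127, Cilp and Vdac1 for Ldhb.

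Each member was set beside a partner, for most of them a form that other tissues use. Ldha, beside the heart-type Ldhb, is the muscle-type subunit, and Cygb, beside Mb, is a related globin. All partners, like the gene lists that follow, were picked with earlier results of these libraries known. Their counts and adjusted p-values are therefore descriptive too. Those counts are to be read beside the shares of all tested genes given above for each comparison. Of the 13 partners, 12 could be tested (Ckmt1, with at most 6 counts in a library, could not). In GelMA against Model, 1 rose and 1 fell: Eno2, the neuronal enolase, by 0.58 ± 0.12 (adjusted p = 0.0035, edgeR), and Cox6a1, the common oxidase subunit, which changed by -0.23 ± 0.06 (adjusted p = 0.0081, edgeR). Their median log2 fold change was 0.087, against 2.03 for the members. Without Model 2, 5 partners rose and 2 fell.

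In PMLGH against Model, 5 partners rose and 1 fell, with a median of 0.15. Ckb, the creatine kinase of brain and other tissues, rose by 0.69 ± 0.09 (adjusted p = 8.2e-05, edgeR), and Eno2 by 0.92 ± 0.12 (adjusted p = 6.4e-05, edgeR). Ckb stood at 311, 292 and 290 CPM in PMLGH, 203, 209 and 213 CPM in GelMA, and 188, 216 and 151 CPM in Model, so the highest values were in PMLGH and not, as for Ckm, in GelMA. Against GelMA, Ckb in PMLGH was higher by 0.51 ± 0.09 (adjusted p = 0.0052, edgeR), the 1 partner that passed there, though not by limma on log2(FPKM + 1). The rises of Pygb (0.19), Pgam1 (0.23) and Eno1 (0.21) were lost in most alternative settings, and the fall of Cox6a1 (-0.21 ± 0.06, adjusted p = 0.012, edgeR) was lost without Model 5 or PMLGH 3.

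As a share of the FPKM of each pair or trio, the members other than Mb reached their highest values in GelMA. Ckm made up 32.3% ± 4.9 of Ckm and Ckb together in PMLGH, 65.1% ± 2.2 in GelMA and 34.7% ± 8.2 in Model (SD, n = 3 each), so PMLGH and Model overlapped, with both Ckm and Ckb higher in PMLGH. Pygm made up 23.9% ± 2.2 of the 3 phosphorylases in PMLGH, 46.0% ± 3.7 in GelMA and 18.8% ± 5.2 in Model. For Pfkm the shares of the 3 phosphofructokinases were 31.6% ± 1.8 in PMLGH, 46.4% ± 1.5 in GelMA and 33.4% ± 2.4 in Model. Ckmt2 made up nearly all of the mitochondrial creatine kinase in every group, with 99.8% in PMLGH, 99.9% in GelMA and 97.4% in Model.

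The members whose partners are abundant stayed minor. Eno3 was 9.95% ± 1.6 of the 3 enolases in PMLGH, 23.3% ± 1.8 in GelMA and 8.50% ± 2.4 in Model. Pgam2 was 11.5% ± 2.1 of the pair with Pgam1 in PMLGH, 30.5% ± 4.0 in GelMA and 10.0% ± 4.4 in Model. Cox6a2 was 3.74% ± 0.85 in PMLGH, 7.97% ± 2.3 in GelMA and 2.15% ± 0.48 in Model of the pair with Cox6a1. Cox8b was 2.49% ± 0.67 of the pair with Cox8a in PMLGH, 7.59% ± 1.4 in GelMA and 1.14% ± 0.32 in Model. Ldhb was 4.26% ± 0.51 of the pair with Ldha in PMLGH, 7.97% ± 0.50 in GelMA and 6.17% ± 1.4 in Model. The common isoforms made up the larger share of each of these pairs and trios in all 3 groups.

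**Figure D3:**
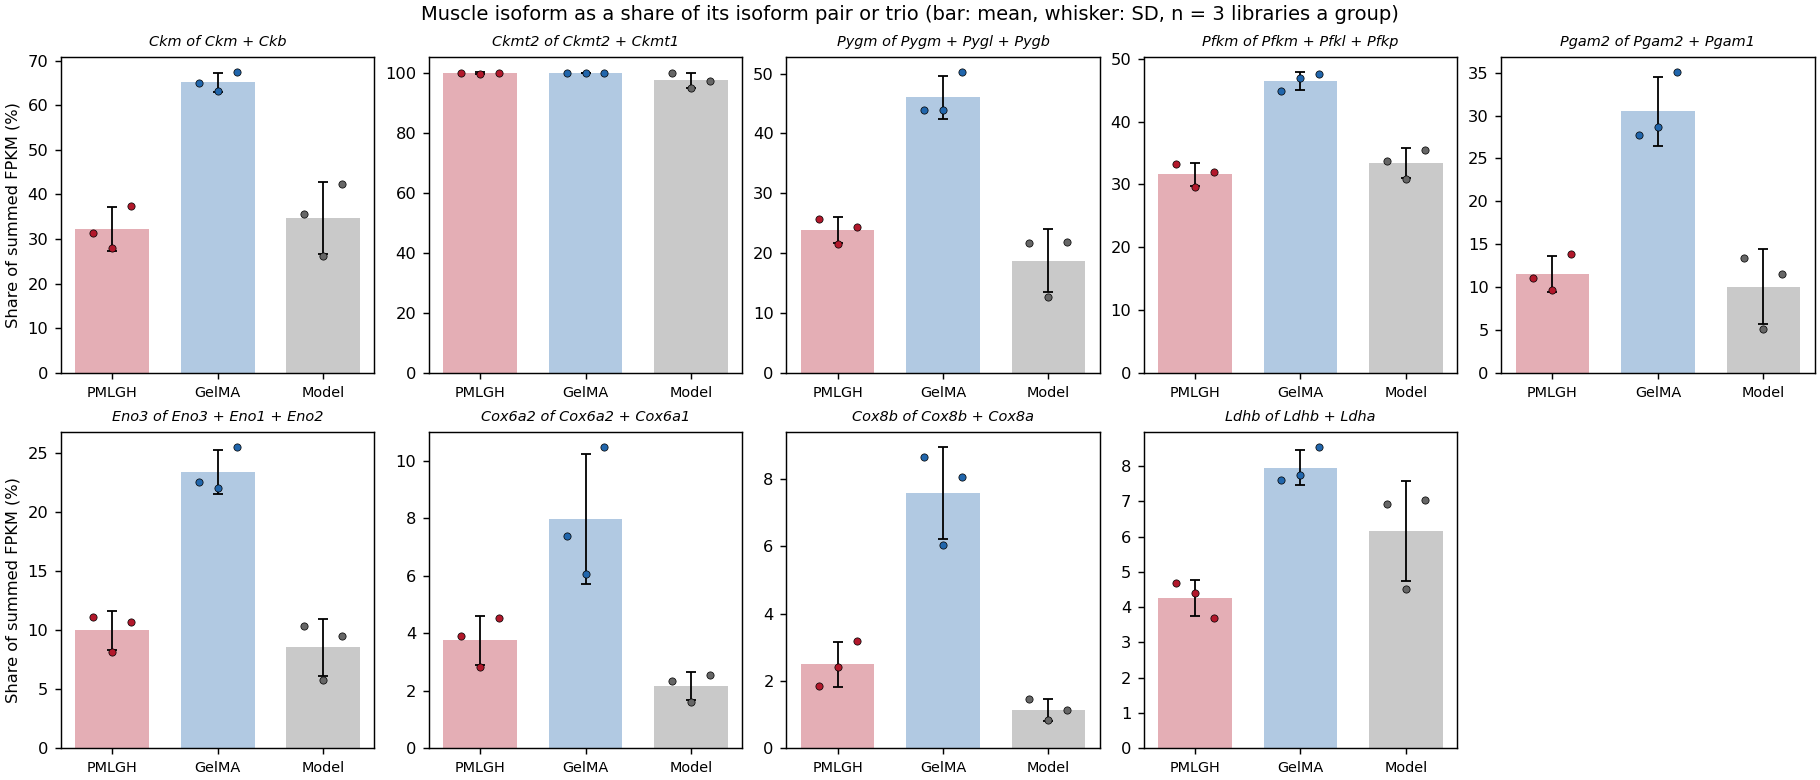
Each member but Mb as a percentage of the summed FPKM of its isoform pair or trio, by library (points) with group mean and SD. Each group has n = 3 libraries, and each axis starts at 0. In every panel but that of Ckmt2, near 100% throughout, GelMA is the highest, and PMLGH and Model overlap for Ckm, Pygm, Pfkm, Pgam2, Eno3 and Ldhb.

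Markers of muscle fibres moved with these genes. The summed level of 13 genes of fast fibres ran from 1082 to 1479 CPM in PMLGH, 3190 to 3925 CPM in GelMA and 670 to 993 CPM in Model. All 13 rose in GelMA against Model (median 2.00) and fell in PMLGH against GelMA (median -1.42), and 9 of 13 rose in PMLGH against Model (median 0.59). Actn3, the fast-fibre actinin, rose by 0.73 ± 0.13 in PMLGH against Model and by 2.08 ± 0.13 in GelMA against Model. Of the 9 calls in PMLGH against Model, 6 held with each library left out. None of the 13 was at 0. In bulk RNA, fewer fibres in the sample and less RNA per fibre cannot be told apart, and the part of fibre content in the changes of the 10 genes was not tested.

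Divided by the sum of the fast-fibre genes, Ckm, Pygm and Eno3 lay close together across groups, and the other members less so. Per 1000 CPM of those 13 genes, Ckm stood at 117 ± 6.9 in PMLGH, 120 ± 4.1 in GelMA and 120 ± 1.3 in Model (SD, n = 3 each). Pygm stood at 53.8 in PMLGH, 54.5 in GelMA and 52.7 in Model, and Eno3 at 29.5 in PMLGH, 28.6 in GelMA and 31.1 in Model. Mb stood at 21.2 ± 1.0 in PMLGH, 21.1 ± 1.2 in GelMA and 19.1 ± 6.0 in Model, and Pgam2 at 9.77 ± 0.84 in PMLGH, 11.1 ± 0.59 in GelMA and 10.1 ± 2.5 in Model, with the widest spread in Model. Cox6a2 was lowest in GelMA, at 4.31 ± 0.48 in PMLGH, 3.51 ± 0.71 in GelMA and 4.22 ± 0.37 in Model. Cox8b was lowest in Model, at 1.02 ± 0.16 in PMLGH, 1.16 ± 0.28 in GelMA and 0.748 ± 0.16 in Model, and libraries of all groups overlapped for both subunits. Ckmt2 stood at 3.91 ± 0.93 in PMLGH, 5.98 ± 0.24 in GelMA and 3.93 ± 0.82 in Model, with every GelMA library above the others. Pfkm and Ldhb went the other way: Pfkm stood at 40.1 ± 4.1 in PMLGH, 27.3 ± 1.9 in GelMA and 64.4 ± 8.4 in Model, and Ldhb at 11.8 ± 2.8 in PMLGH, 8.29 ± 0.48 in GelMA and 23.5 ± 0.93 in Model. For these, all Model libraries were above all others.

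**Figure D4:**
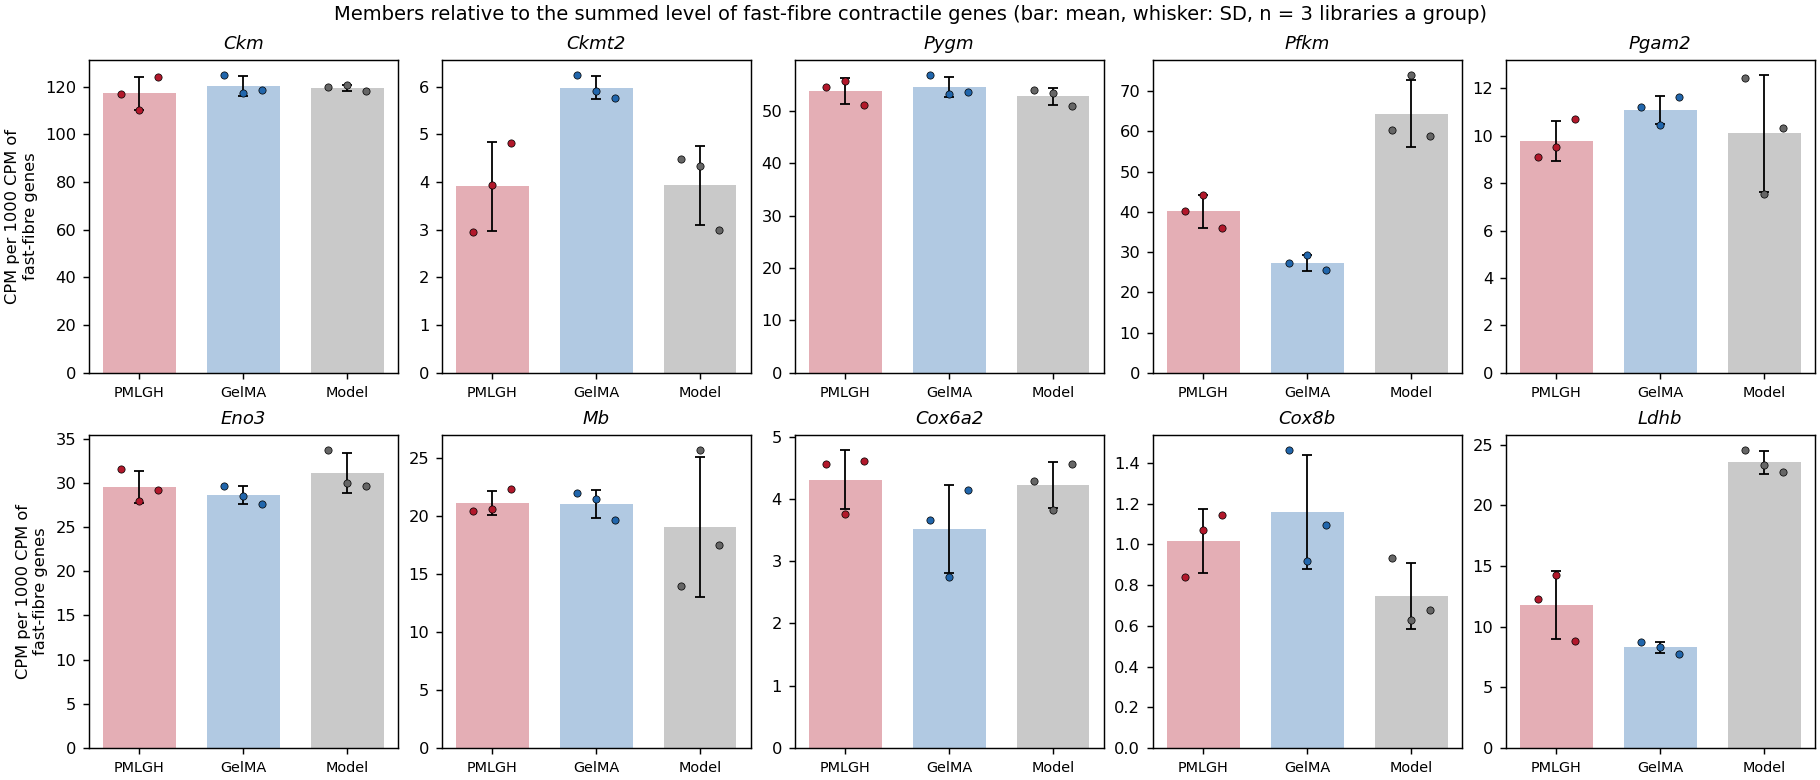
Each gene's CPM per 1000 CPM of the 13 fast-fibre genes, by library (points) with group mean and SD, n = 3; each axis starts at 0. Ckm, Pygm and Eno3 are nearly level over the groups, while Pfkm and Ldhb are highest in Model and lowest in GelMA.

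Most of 10 genes of slow fibres were also higher in both treated groups than in Model. The summed level of all 10 ran from 38.3 to 42.7 CPM in PMLGH, 56.6 to 71.5 CPM in GelMA and 18.2 to 24.4 CPM in Model. In PMLGH against Model 7 of 10 rose (median 1.29), in GelMA against Model 9 of 10 rose (median 2.17), and in PMLGH against GelMA 2 of 10 fell (median -0.66). Myh7, the slow myosin, rose by 2.24 ± 0.25 in PMLGH against Model and by 3.42 ± 0.24 in GelMA against Model. Casq2, the calsequestrin of slow and heart muscle, rose by 2.07 ± 0.27 in PMLGH against Model and by 2.48 in GelMA against Model. It did not pass in PMLGH against GelMA.

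Several members, among them Mb, Cox6a2 and Cox8b, are also made in heart, and in rodents Cox8b is made in brown fat. Nppa and Myl7, atrial markers, had no reads in any of the 9 libraries, which allows up to 3 counts in each. Myh6, the alpha myosin of heart, had 30 reads in all over PMLGH, 80 over GelMA and 2 over Model. The similar Myh7 had 801 over PMLGH, 1806 over GelMA and 159 over Model. Whether some reads given to Myh6 came from Myh7 was not tested. On the log2 scale Myh6 rose by 3.59 in PMLGH against Model and by 5.00 in GelMA against Model. Both calls held with each library left out, but few Model reads stand behind them. They were lost in 2 and 1 of the alternatives. In PMLGH against GelMA, Myh6 stood at -1.41 and did not pass. Myl4, an atrial light chain also made in developing muscle, had 234 reads over PMLGH, 187 over GelMA and 89 over Model. It rose by 1.29 ± 0.43 in PMLGH against Model, a call lost in 4 of the fits without 1 library, and stood at 0.98 ± 0.43 in GelMA against Model, which did not pass. Tnni3, the troponin I of heart, was highest in Model, with 66 reads over PMLGH, 48 over GelMA and 108 over Model, and passed in 0 of the 3 comparisons. Summed levels of the 7 heart genes in the table ran from 3.48 to 4.80 CPM in PMLGH, 2.68 to 5.03 CPM in GelMA and 2.14 to 3.11 CPM in Model. Ucp1, the defining gene of brown fat, had 3 reads in all in PMLGH, 4 in GelMA and 4 in Model. The summed level of 6 brown fat genes, nearly all of it Cidea and Dio2, ran from 11.7 to 13.3 CPM in PMLGH, 9.90 to 12.1 CPM in GelMA and 6.64 to 10.5 CPM in Model. Those 2 moved apart: Dio2, a deiodinase also made in bone and muscle, rose by 1.33 ± 0.18 in PMLGH against Model and 1.30 ± 0.18 in GelMA against Model, while Cidea stood at -0.08 ± 0.20 in PMLGH against Model and -0.55 ± 0.21 in GelMA against Model and did not pass. The part of these tissues in the results was not tested beyond these levels.

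Marker RNA of other cells of the tibia also differed between groups. Summed bone markers (8 genes) ran from 21406 to 25018 CPM in PMLGH, 20227 to 22523 CPM in GelMA and 10091 to 12430 CPM in Model, and 6 of 8 rose in PMLGH and 8 of 8 in GelMA against Model. The 2 that did not pass in PMLGH against Model were Dmp1 (-0.08) and Sost (0.17). In PMLGH against GelMA these 2 fell, at -1.11 for Dmp1 and -0.49 for Sost, and the other 6 did not pass. Both falls held with each library left out. Erythroid markers (7 genes) were at 7427 to 8259 CPM in PMLGH, 7735 to 8310 CPM in GelMA and 9187 to 11359 CPM in Model, and all 7 fell in both treated groups against Model. Smooth muscle markers (6 genes) were at 258 to 266 CPM in PMLGH, 221 to 229 CPM in GelMA and 102 to 137 CPM in Model, and 5 of 6 rose in both treated groups against Model. Their part in the muscle results was not tested.

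In the wider energy pathways most genes did not pass in PMLGH against Model. Of all tested genes, 15.7% passed upward and 11.9% downward in PMLGH against Model. The shares were 12.7% and 9.88% in GelMA against Model, and 1.8% and 1.64% in PMLGH against GelMA. A count near these shares says nothing particular about its list. Of 24 other genes of glycogen and glycolysis, 5 rose and 3 fell in PMLGH against Model (median 0.13), 11 rose and 2 fell in GelMA against Model (median 0.26), and 1 rose and 7 fell in PMLGH against GelMA (median -0.13). With each library left out in turn, 3 rises and 0 falls held in PMLGH against Model, and 7 rises and 1 fall in GelMA against Model. Ppp1r3a, which brings protein phosphatase to glycogen in muscle, rose by 1.46 ± 0.28 in PMLGH against Model (adjusted p = 0.0013, edgeR) and 2.75 ± 0.27 in GelMA against Model (adjusted p = 5.8e-06, edgeR). It fell by 1.29 on the log2 scale in PMLGH against GelMA (adjusted p = 0.0072, edgeR). Ppp1r3c, a glycogen-targeting subunit of broader expression, rose by 0.59 ± 0.14 in PMLGH against Model (adjusted p = 0.0066, edgeR) and 1.01 ± 0.14 in GelMA against Model (adjusted p = 0.00016, edgeR). Hk2, the insulin-responsive hexokinase of muscle, rose by 0.59 ± 0.14 in PMLGH against Model (adjusted p = 0.0053, edgeR). In GelMA against Model it rose by 0.53 ± 0.14 (adjusted p = 0.013, edgeR), a call lost in 3 of the fits without 1 library. It did not pass in PMLGH against GelMA. Hk1 fell by 0.21 in PMLGH against Model (adjusted p = 0.011, edgeR), a call lost when 1 library was left out.

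Among 9 other genes of the phosphagen and adenylate system, 3 rose and 1 fell in PMLGH against Model (median 0.26), 5 rose and 1 fell in GelMA against Model (median 0.30), and 3 fell in PMLGH against GelMA (median -0.17), of which only Ampd1 held with each library left out. Ampd1, the AMP deaminase of muscle, had the member pattern, with 0.78 ± 0.14 in PMLGH against Model (adjusted p = 0.00097, edgeR), 1.88 ± 0.14 in GelMA against Model (adjusted p = 3.2e-07, edgeR) and -1.09 ± 0.14 in PMLGH against GelMA (adjusted p = 0.00022, edgeR). Slc25a4, the adenine nucleotide carrier of muscle and heart, rose by 0.26 ± 0.06 in PMLGH against Model (adjusted p = 0.0046, edgeR) and 0.49 ± 0.06 in GelMA against Model (adjusted p = 3.8e-05, edgeR). Slc6a8, the creatine transporter, rose by 0.52 ± 0.10 in PMLGH against Model (adjusted p = 0.00096, edgeR). In GelMA against Model it rose by 0.30 ± 0.10 (adjusted p = 0.040, edgeR), a call lost in 7 of the fits without 1 library. It did not pass in PMLGH against GelMA. Ampd3, the form of red cells and other tissues, fell by 0.31 on the log2 scale in PMLGH against Model (adjusted p = 0.0046, edgeR). In GelMA against Model it stood at -0.26 ± 0.07 (adjusted p = 0.017, edgeR), a call lost in 4 of the fits without 1 library. It did not pass in PMLGH against GelMA.

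Of 11 other genes named as cytochrome c oxidase subunits, 2 fell in PMLGH against Model and 3 in GelMA against Model. The median log2 fold changes were -0.06 and -0.10. Upward calls numbered 0 in each comparison by edgeR, by DESeq2 and by limma on FPKM, and also at an unadjusted p under 0.05. In PMLGH against GelMA, 0 of 11 passed by any of these tools, with 1 lower at an unadjusted p under 0.05 and a median of 0.03. Cox7b was the 1 gene of these whose calls held with each library left out. It fell by 0.31 in PMLGH against Model (adjusted p = 0.0037, edgeR) and by 0.33 in GelMA against Model (adjusted p = 0.0034, edgeR). Of 11 genes of lactate and pyruvate handling, 2 rose (Slc16a3 and Bsg) and 1 fell (Slc16a1) in PMLGH against Model, 2 rose (Slc16a3 and Pdk4) and 1 fell (Slc16a1) in GelMA against Model, and 1 fell (Pdk4) in PMLGH against GelMA. The rise of Bsg, by 0.17, was lost in 7 of the fits without 1 library. Pdk4, a kinase that shuts down pyruvate dehydrogenase, rose by 0.73 ± 0.10 in GelMA against Model (adjusted p = 0.00012, edgeR) and fell by 0.58 on the log2 scale in PMLGH against GelMA (adjusted p = 0.0034, edgeR). Slc16a3, the lactate exporter of glycolytic cells, rose by 0.67 ± 0.09 in PMLGH against Model (adjusted p = 0.0001, edgeR) and 0.56 ± 0.09 in GelMA against Model (adjusted p = 0.00064, edgeR). Slc16a1, a lactate carrier also abundant in red cell precursors, fell by 0.40 in PMLGH against Model (adjusted p = 0.00042, edgeR) and 0.35 in GelMA against Model (adjusted p = 0.0016, edgeR).

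Of 11 genes of muscle fatty acid use, 1 rose and 1 fell in PMLGH against Model, 3 rose and 3 fell in GelMA against Model, and 3 fell in PMLGH against GelMA. In PMLGH against Model those were Fabp3 (0.59), lost in 7 of the fits without 1 library, and Slc25a20 (-0.30), lost in 5; the 6 calls of GelMA against Model held in all of these fits, and those of PMLGH against GelMA in 0 of 3. Fabp3, the fatty acid binding protein of heart and muscle, rose by 1.48 ± 0.20 in GelMA against Model (adjusted p = 8.7e-05, edgeR). Of 12 tested regulators of oxidative muscle genes, 3 rose and 2 fell in PMLGH against Model, 4 rose in GelMA against Model and 1 fell in PMLGH against GelMA. In PMLGH against Model, Mef2a and Nrf1 were the 2 that held with each library left out. Mef2a, a factor that binds the MEF2 motif, rose by 0.34 ± 0.07 in PMLGH against Model (adjusted p = 0.0017, edgeR) and by 0.33 ± 0.07 in GelMA against Model (adjusted p = 0.0023, edgeR). Nrf1, a regulator of mitochondrial genes, fell by 0.25 in PMLGH against Model (adjusted p = 0.0046, edgeR).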

How the data were processed

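Raw counts per gene symbol and FPKM (fragments scaled to gene length and library total) were deposited by the authors for all 9 libraries. Per the submitters' processing notes DESeq2 and R 3.2.0 were used, with no role given; no source used here gives the aligner, counter, build, annotation or strand, so reads of overlapping and antisense genes cannot be told apart. For all 22798 genes with a count, each FPKM equalled the count over the library total and a fixed gene length (relative tolerance 0.0001), so FPKM add no independent measurement.

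Counts were fitted with edgeR 4.0.16 (limma 3.58.1, R 4.3.3): filterByExpr, TMM scaling, and quasi-likelihood tests with a mean for each group over the 9 libraries (6 residual degrees of freedom, common biological coefficient of variation 10.1%). Tests were two-sided, with Benjamini-Hochberg adjustment over 16816 genes and a threshold of 0.05. The SE is the size of the log2 fold change over the square root of F. CPM use TMM-scaled totals. Alternatives were RLE and upper-quartile scaling, DESeq2 1.42.0, no filter, groups compared alone, each library left out, limma on log2(FPKM + 1) and log2(FPKM + 0.1), and a replicate block. The method was also run on simulated counts with the same biological coefficient of variation for every gene. That run does not bear on the calls made here.

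The members and all gene lists were chosen with earlier results of these data known. Named genes are all members and their partners, the 10 genes most like the members' mean of standardized log2 CPM (prior count 2), and the nearest genes of Pfkm and Ldhb. To these come up to 4 passing genes of smallest p in PMLGH against Model per list. Some of those were left out, among them some whose call was lost without a library. Of the smooth muscle, erythroid and bone lists, none of them was named. Pdk4, Tnni3, Cidea, Dmp1 and Sost were named after their values were seen. Nppa, Myl7 and Ucp1, which were not tested, were also named outside this rule. Promoters are RefSeq's, GRCr8 build, used for sequence only and not joined to the reads by position.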

Additional observations from a re-analysis of the deposited data

How the results depend on the processing

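No member changed sign in any alternative tried. Leaving out 1 library at a time, members passing numbered 2 to 7 in PMLGH against Model (9 with no filter on low counts), 9 to 10 in GelMA against Model and 9 to 10 in PMLGH against GelMA, and genes passing numbered 3244 to 5668, 2601 to 5053 and 303 to 1050 in the same order, where all libraries gave 4631, 3804 and 578. Without Model 2, the median log2 fold change of the members was 0.38 in PMLGH against Model and 1.82 in GelMA against Model. Partner isoforms passing numbered 2 to 8 in PMLGH against Model and 2 to 7 in GelMA against Model. With upper-quartile scaling, or with the groups compared alone, 3 partners passed in PMLGH against Model. In PMLGH against GelMA, 1059 genes and 2 partners passed with the groups compared alone, and 384 genes passed by limma on log2(FPKM + 0.1). By limma on log2(FPKM + 1), 0 partners passed in PMLGH against GelMA, with 3 at an unadjusted p under 0.05, and 1 by DESeq2. With the replicate number as a block, 1037 genes and all 10 members passed in PMLGH against GelMA, where the same 6 libraries without it gave 1059 genes. The correlations of same-numbered libraries' deviations from their group means were 0.0136, 0.0267 and -0.0083. With 3 libraries a group, such values cannot decide whether the numbers pair the samples. No block was fitted against Model: only number 2 is shared, so the comparison would have rested on Model 2. Cox8b rests on 15 to 29 reads in each Model library, which limits its fold change. The causes of these shifts were not tested.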
